A study of Mus musculus with 16 samples.

Results

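The deprived arrays of this study follow a single cell line through 16 h without amino acids. N25/2 is an immortalized cell line derived from embryonic mouse hypothalamus, grown in serum-supplemented DMEM. Cells received medium lacking amino acids (deprived) or medium with amino acids (control) for 1, 2, 3, 5 or 16 h, and total RNA was hybridised to Affymetrix whole-transcript arrays. The members here are all 8 deprived arrays of the 16 arrays in the series, chosen by their treatment label. They comprise 1 array each at 1, 2 and 3 h, 4 arrays at 5 h and 1 array at 16 h. The 8 control arrays of the same hours serve as the comparison for time in culture. The labels do not say whether arrays came from separate cultures, and p-values reflect no more than the spread among these arrays, which may be technical. Values are log2 levels, on which a difference of 1 is a 2-fold change, and 19938 genes were tested.

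When amino acids run short, uncharged tRNA activates the kinase GCN2, which phosphorylates the initiation factor eIF2alpha and slows translation in general while favouring translation of the transcription factor ATF4. ATF4 then drives genes for amino acid uptake, amino acid synthesis and tRNA charging, together with stress regulators such as Ddit3 (CHOP) and Trib3. In parallel the kinase complex mTORC1, which senses amino acids, loses activity, and programs it supports, among them sterol and lipid synthesis through the SREBP factors, can be lowered.

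Cell type markers were read first. Levels of different genes are not comparable in these values, so the counts below describe signal and do not establish a cell type. Of 12 fibroblast and mesenchyme markers, 9 stood above the median level of all genes (7.47), with Postn at 12.91 and Col1a1 at 12.11 on the deprived 1 h array. Of 15 neuron markers, 2 did so: Stmn2 at 12.24 and Map2 at 9.84, while Tubb3 read 6.12. Of 22 hypothalamic peptide and receptor genes 7 stood above that level, and 0 of 8 endothelial markers. So did 6 of 11 neural progenitor and 4 of 10 astrocyte markers, with highest member levels of 13.7 and 11.74. For oligodendrocyte, microglia and macrophage, and epithelium markers it was 2 of 9, 2 of 10 and 1 of 7. Array 4 at 5 h stood apart in both treatments. Deprived 5 h arrays 1 to 3 correlated with each other at 0.9978 to 0.9983 over all genes and with array 4 at 0.9862 to 0.9875, and both arrays 4 correlated with each other at 0.9934. The deprived and control arrays 4 and the control 3 h array also had wider distributions, with interquartile ranges of 3.60, 3.62 and 3.54 against 3.30 to 3.48 on the others.

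The number of genes away from their level at 1 h grew with time without amino acids, and the larger part of it appeared after 5 h. The arrays begin at 1 h, so changes within the first hour are not counted. Counted as genes at least 1 log2 unit above the deprived 1 h array, 13 genes (0.0652% of those tested) stood higher on the 2 h array and 44 (0.221%) on the 3 h array. The mean of the 5 h arrays gave 87 (0.436%) and the 16 h array 440 (2.21%). Below the 1 h array by as much stood 10 (0.0502%), 37 (0.186%), 83 (0.416%) and 680 (3.41%) genes at these hours. The control arrays, read against their own 1 h array, gave 8 (0.0401%), 21 (0.105%), 19 (0.0953%) and 30 (0.15%) genes above. They gave 14 (0.0702%), 32 (0.16%), 82 (0.411%) and 172 (0.863%) below. Numbers of falling genes were thus alike in both treatments up to 5 h, and the excess in deprived cells before 16 h lay among the genes above. Of the 87 genes above at 5 h, 60 were still above at 16 h, and of the 83 below at 5 h, 66 were still below; 0 genes moved from above to below or from below to above. Of the 680 genes below at 16 h in deprived cells, 83 were also below in control cells. These counts rest on single arrays at 1, 2, 3 and 16 h and carry no test.

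**Figure D1:**
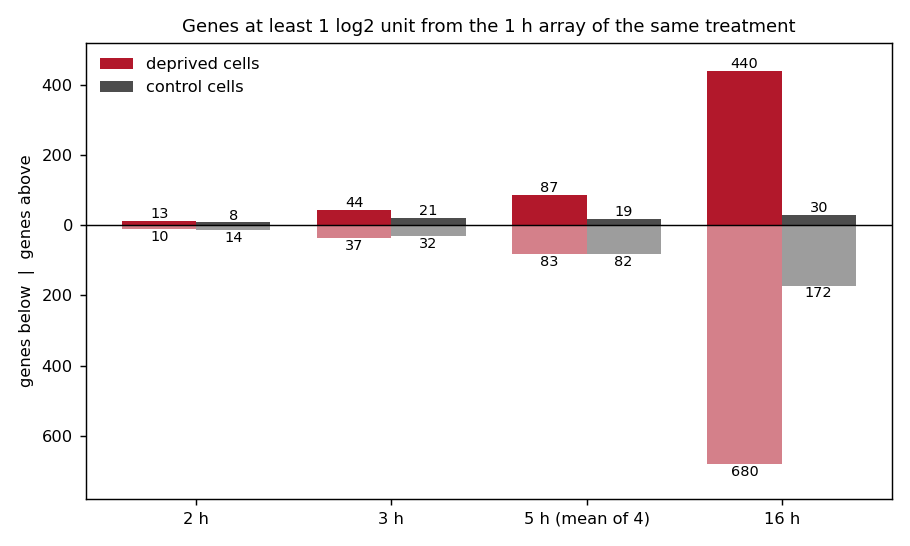
Number of genes (vertical axis) at least 1 log2 unit above (up) or below (down) the 1 h array of the same treatment at each later time, deprived cells in red and control cells in grey; the 5 h bars use the mean of 4 arrays and the others 1 array. Deprived counts climb from 13 above and 10 below at 2 h to 440 above and 680 below at 16 h, while control counts reach 30 and 172.

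The amino acid response list was higher on the deprived 2 h array than at 1 h and stayed higher through 16 h. Over the 42 measured genes of this ATF4 list the median difference from the deprived 1 h array was 0.33, 0.56, 0.61 and 0.66 after 2, 3, 5 and 16 h, and the single 5 h arrays gave medians between 0.56 and 0.64. The control cells went the other way, with medians of -0.01, -0.07, -0.44 and -0.61 at the same hours. The median over all genes tested stayed between -0.03 and 0.00 in deprived cells. In the test of 5 h against 1 to 3 h described further on 1 of the 42 members passed, the glycine transporter Slc6a9. The 18 cytosolic tRNA synthetases, which charge tRNA with amino acids, showed medians of 0.14, 0.42, 0.33 and 0.49 in deprived cells and 0.02, 0.14, -0.34 and -0.38 in control cells.

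**Figure D2:**
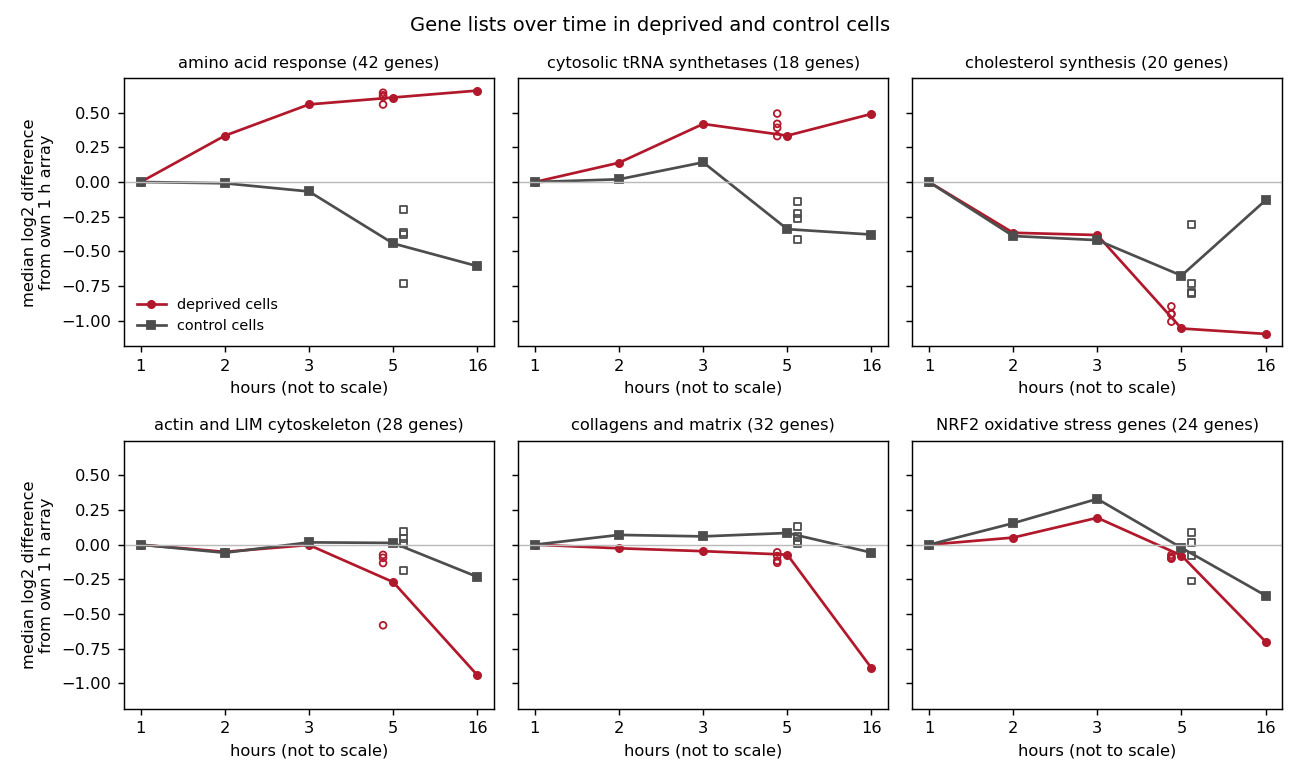
Median log2 difference of a gene list from the 1 h array of the same treatment (vertical axis) against hours (not to scale), deprived cells as red circles and control cells as grey squares. Filled symbols at 5 h are the median of the genes' means over 4 arrays and open symbols the median on each single array, so a filled symbol can lie outside the open ones. The amino acid response list is at 0.56 by 3 h and 0.66 at 16 h, cholesterol synthesis drops to -1.06 at 5 h, and the matrix and actin lists stand at -0.89 and -0.94 at 16 h.

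Single genes of the response differed in how soon they levelled off. Slc7a11, the cystine-glutamate exchanger that feeds glutathione synthesis, read 8.82, 10.41 and 10.69 on the 1, 2 and 3 h arrays, 11.79, 11.66, 11.67 and 11.22 on the 5 h arrays and 11.41 on the 16 h array. All 5 h arrays lay above the 3 early arrays, and 57.6% of its difference between 1 and 5 h was present at 2 h. Asns, asparagine synthetase, read 12.04, 12.55 and 12.86 at 1, 2 and 3 h, 12.84, 12.80, 12.70 and 13.13 at 5 h and 13.11 at 16 h, so the 3 h array was already inside the 5 h range. Atf3, a stress-induced transcription factor, read 9.15, 9.90 and 10.48, then 10.49, 10.68, 10.07 and 10.06 at 5 h and 11.09 at 16 h. Ppp1r15a, which directs a phosphatase to eIF2alpha and so reverses the translation block, read 8.69, 9.48 and 9.98, then 9.92, 10.01, 9.70 and 9.59 and 10.85 at 16 h. For Atf3 and Ppp1r15a the 3 h array lay inside the 5 h range and the 16 h array above it. The amino acid transporters Slc38a2 and Slc3a2 had 86.6% and 77.4% of their 1 h to 5 h difference at 2 h. In contrast Ddit3 had 21.2% at 2 h and 96.5% at 3 h, and Slc7a5, the partner of Slc3a2 in leucine uptake, had 28.8% and 60.0%.

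Other members differed less between hours or followed no single direction. Atf4 mRNA read 10.40, 10.48 and 10.61 in the first 3 h, 10.56, 10.59, 10.58 and 10.56 at 5 h and 10.72 at 16 h, whereas the control arrays went from 10.08 at 1 h to a mean of 9.62 at 5 h and to 9.44 at 16 h. Chac1, which degrades glutathione, read 11.27 at 1 h against 10.53 in control cells, and lay between 11.37 and 11.88 at every later time. Sesn2, a leucine-binding inhibitor of mTORC1 signalling, was highest at 3 h (10.67) and lay between 10.25 and 10.37 on the 5 h arrays. Its 5 h minus 1 to 3 h difference was -0.02 ± 0.14 (SE, limma adjusted p = 0.999), and its sign turned in some alternative settings. Ddit4, another mTORC1 inhibitor, read 9.20 at 1 h against 10.14 in control cells, then 9.73 and 9.94 at 2 and 3 h, 9.56, 9.45, 9.44 and 10.59 at 5 h and 9.03 at 16 h, with array 4 as the high value at 5 h.

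Of the 42 ATF4-list genes, 38 had a promoter sequence from RefSeq (GRCm38.p6) in the tables used here, as did 15563 of the 19938 tested genes. In the 250 bases before the start, the C/EBP-ATF response element TGATGNAA, searched on both strands, was present in 11 of these 38 promoters (28.9%), against 3.14% of all promoters searched. Lists of ATF4 targets are in part built on such sites, so this share is no independent evidence. Among the 24 genes whose 5 h change was higher than in control cells in the test below, 19 had a promoter and 5 of these (26.3%) held the element: Abraxas1, Arl14ep, Got1, Slc9a9 and Vldlr. Got1 and Vldlr are also on the ATF4 list. With the pair of arrays as a block, 22 of 310 promoters of genes whose 5 h change was higher than in control cells (7.1%), and 2 of 156 of those whose change was lower (1.28%), held it. Of the genes called in deprived cells at 5 h, it was present in 2 of 32 promoters of those that rose (6.25%) and 3 of 28 of those that fell (10.7%; Idi1, Mmp10 and Ppp1r10). The windows below are given because the 5 named genes, and 4 of the response genes described above, carry the match; capitals mark the element or, for a match on the other strand, its reverse complement.
Got1: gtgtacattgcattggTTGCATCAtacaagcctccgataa
Vldlr: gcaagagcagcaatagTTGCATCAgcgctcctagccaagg
Arl14ep: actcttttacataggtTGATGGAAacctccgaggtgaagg
Abraxas1: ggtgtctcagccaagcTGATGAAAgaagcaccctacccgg
Slc9a9: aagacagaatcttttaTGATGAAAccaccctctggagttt
Asns: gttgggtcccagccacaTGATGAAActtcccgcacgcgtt
Slc7a11: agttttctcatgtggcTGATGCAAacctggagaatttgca
Atf3: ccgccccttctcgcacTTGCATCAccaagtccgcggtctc
Chac1: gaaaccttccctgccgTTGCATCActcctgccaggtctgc
In GRCm38.p6 the Got1 window lies at chr19:43524684-43524723 on the minus strand, with the match 102 to 95 bases before the start. The Vldlr window lies at chr19:27216804-27216843 (plus), the Arl14ep window at chr2:106973137-106973176 (minus), the Abraxas1 window at chr5:100821044-100821083 (minus) and the Slc9a9 window at chr9:94669807-94669846 (plus). The Asns window lies at chr6:7693210-7693249 (minus), the Slc7a11 window at chr3:50443656-50443695 (minus), the Atf3 window at chr1:191183420-191183459 (minus) and the Chac1 window at chr2:119351033-119351072 (plus). The Slc7a11 promoter held a further match 47 to 40 bases before the start. The CArG box, the site of serum response factor, was found in 4 of 29 immediate early promoters (Egr2, Rnd3, Srf and Zfp36; 13.8%) against 1.46% of all promoters searched. A match describes the letters of the promoter and no binding was measured.

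Several genes outside that list were also displaced by 2 or 3 h. Pdcd4, an inhibitor of the helicase eIF4A, read 9.61 at 1 h, 11.09 at 2 h and 11.13 at 3 h, with 10.98 to 11.53 at 5 h and 11.14 at 16 h. Control Pdcd4 arrived at similar levels later, with 10.19 at 2 h, 10.69 at 3 h and 10.34 to 11.46 at 5 h. Cdkn2aip and Ndel1, a regulator of the motor dynein, had 92.3% and 90.3% of their 5 h difference at 2 h. Acot2, a mitochondrial acyl-CoA thioesterase, read 10.82, 11.78 and 12.08, then 12.10, 12.35, 11.95 and 12.06 and reached 12.74 at 16 h. Gpr141, an orphan receptor, kept going up through 5 h, from 6.69 at 1 h to 7.52, 7.81 and 5 h values of 9.46, 8.76, 9.13 and 8.08.

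Among the early low genes, Id2, an inhibitor of basic helix-loop-helix factors, read 11.99 at 1 h, 10.78 at 2 h and 10.12 at 3 h. It then read 9.61, 9.60, 9.74 and 9.53 at 5 h and 8.31 at 16 h, a stepwise descent without overlap between successive times. Control Id2 was also lower at 5 h, with a 5 h minus 1 to 3 h difference of -1.48 against -1.34 in deprived cells. Has2, a hyaluronan synthase, read 10.52, 9.23 and 8.60, then 8.75, 8.48 and 8.95 on 5 h arrays 1 to 3 and 7.84 at 16 h, whereas 5 h array 4 lay between the 1 h and 2 h arrays. Foxq1, a forkhead transcription factor, read 9.83, 9.08 and 8.83, then 8.72 to 8.87 and 7.29 at 16 h, with control values of 10.03, 9.39, 9.12, 8.68 to 8.76 and 7.45. Sync, an intermediate filament protein, read 9.70, 9.02 and 8.37, then 8.10 to 8.25 and 8.04, while the control 5 h arrays were at 9.10 to 9.39. The chemokine Cxcl5 read 10.29, 9.73 and 9.25, then 8.63 to 9.34 and 7.72. Small RNAs also met the rule: Snora44 read 11.20 at 1 h and 9.43 to 9.90 later, and Rny1 9.96 at 1 h and 7.88 to 9.02 later. For both, the deprived 1 h array was the array apart, since the control 1 h arrays read 9.87 and 8.67.

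In deprived cells the list medians of the growth-factor-responsive genes differed little between hours, while single members moved in both directions. The 40 immediate early genes had deprived medians of -0.13, -0.08, -0.08 and -0.13 from 1 h at 2, 3, 5 and 16 h, against -0.27, -0.48, -0.56 and -0.60 in control cells. At 5 h 2 members stood at least 1 above the deprived 1 h array and 4 below, against 0.436% and 0.416% of all genes tested. At 16 h 6 stood above and 5 below, against 2.21% and 3.41%. On the 1 h arrays some members read lower in deprived than in control cells: Egr1, an immediate early transcription factor, read 8.02 against 10.52, Dusp6, a feedback phosphatase of ERK, 8.20 against 10.51, and Phlda1 8.43 against 10.24. Fos (6.49 against 6.93) and Myc (11.61 against 11.77) lay closer together. Deprived Egr1 then read 8.31 and 8.14, 9.04, 8.93, 8.82 and 10.29 at 5 h and 11.15 at 16 h. From 5 to 16 h it rose by 1.88 ± 0.44 (SE, limma adjusted p = 0.0457). In control cells it dropped from 10.52 to 7.39 at 3 h and read 8.54 at 16 h. The 16 h minus 5 h difference between treatments did not pass the threshold (1.37, adjusted p = 0.891). Myc stayed between 11.26 and 11.69 through 5 h and read 12.10 at 16 h in deprived cells, while the control arrays went from 11.77 at 1 h to between 9.65 and 10.52 at 5 h. Of the 40 genes, 4 rose and 2 fell from 5 to 16 h, against 1.15% and 3.09% of all genes tested. The risers included Btg2, an antiproliferative gene, by 1.44 and Fos by 0.66 (adjusted p = 0.000659 and 0.0486). The ERK feedback list of 28 genes held medians of -0.05 to -0.19 in deprived cells and -0.18 to -0.82 in control cells.

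The replicated contrast set the 4 arrays of 5 h against the 3 arrays of 1 to 3 h. In the fit of the 8 deprived arrays 72 genes passed an adjusted p of 0.05 (0.361% of those tested; limma, two-sided, Benjamini-Hochberg), 39 higher (0.196%) and 33 lower (0.166%), with absolute changes of 0.46 to 1.36. The early arrays differ in time, so their spread holds change between 1 and 3 h as well as array error, and genes that moved between 1 and 3 h have less power here. All 4 arrays of 5 h lay above all 3 early arrays for 1166 genes (5.85%) and below for 1186 (5.95%), against 954 (4.78%) and 1016 (5.1%) in control cells. The count of calls depended strongly on single arrays. It was 791 without 5 h array 4, which included all 72, but 0 without the 1 h or the 2 h array, 21 without the 3 h array and 1, 3 and 4 without 5 h arrays 1, 2 and 3. At an unadjusted p under 0.05 the counts were 2258 with all arrays, 1439 without the 1 h array and 1666 without the 2 h array.

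**Figure D3:**
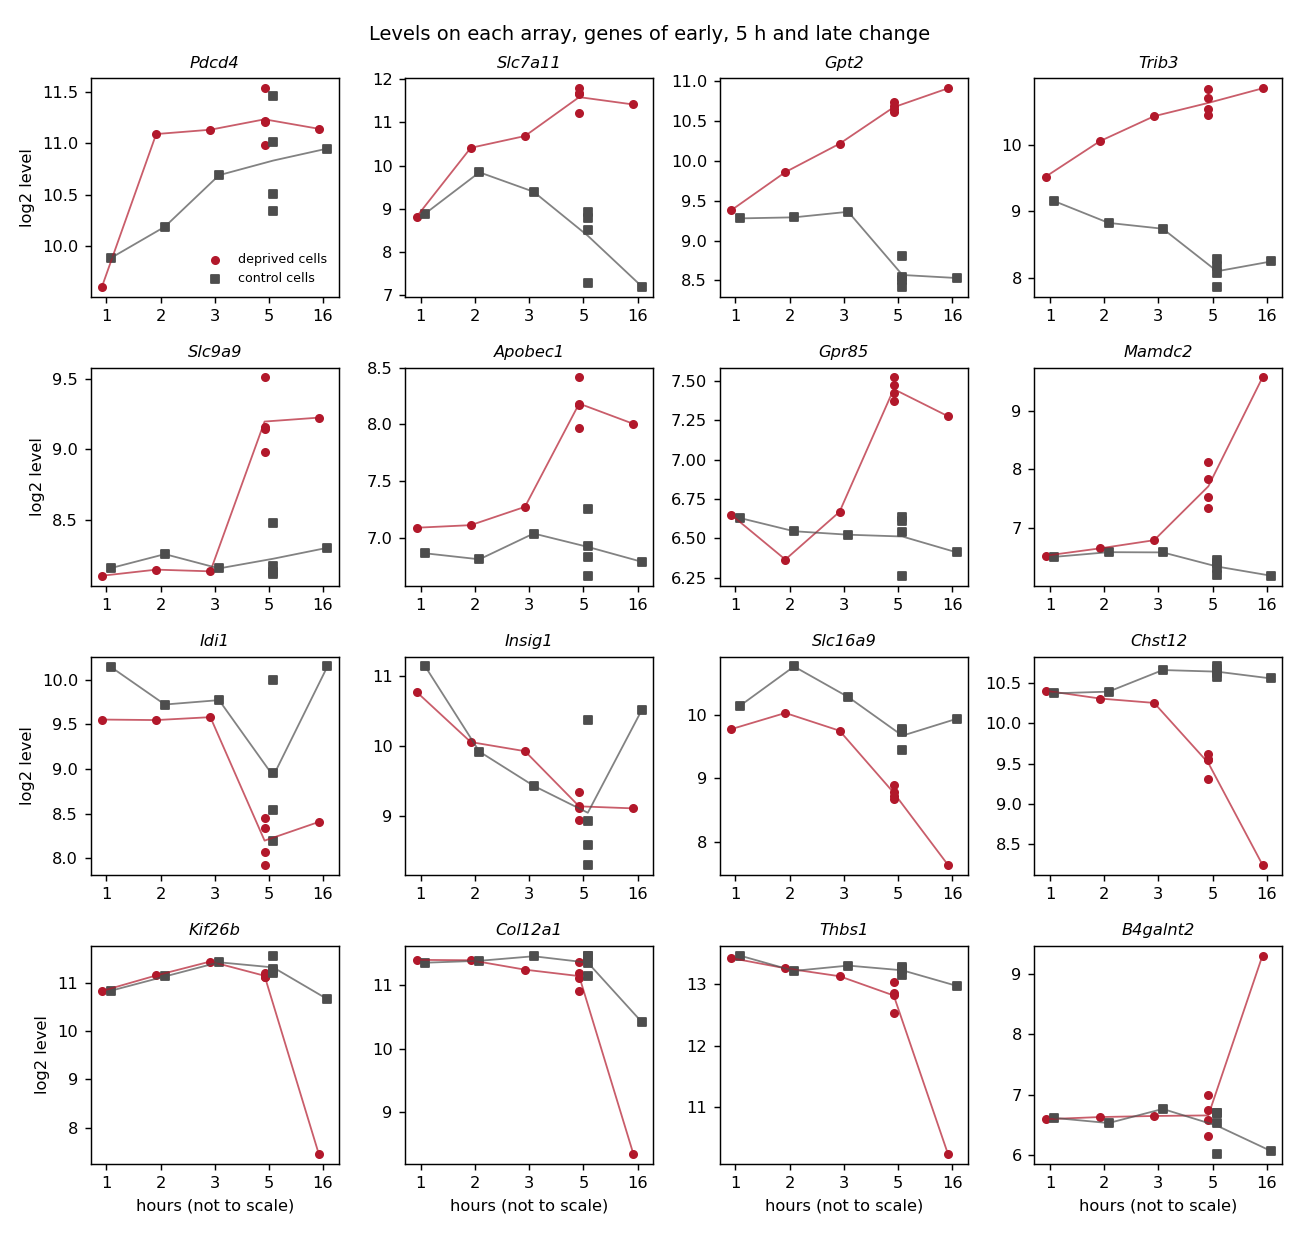
Log2 level (vertical axis) on each array for 16 genes against hours (not to scale), deprived cells as red circles and control cells as grey squares, with lines through the mean at each time. In deprived cells Slc9a9, Apobec1 and Gpr85 stay level to 3 h and stand higher on all 4 arrays of 5 h. Kif26b, Col12a1 and Thbs1 are low on the deprived 16 h array alone.

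The 10 largest rises at 5 h were of mixed function. They were mostly absent at 3 h, which the test itself favours, since it passes genes that were nearly level from 1 to 3 h. Slc9a9, an endosomal sodium-proton exchanger, read 8.10, 8.15 and 8.13 in the first 3 h, 9.14, 8.98, 9.16 and 9.51 at 5 h and 9.23 at 16 h. It rose by 1.07 ± 0.12 (SE, adjusted p = 0.0164), with 2.9% of the 1 h to 5 h difference present at 3 h. Control Slc9a9 lay between 8.12 and 8.48 on all arrays. Apobec1, a cytidine deaminase that edits RNA, read 7.09, 7.11 and 7.27, then 8.18, 8.17, 7.97 and 8.41, then 8.0, a rise of 1.02 ± 0.11 (adjusted p = 0.0164). Gpr85, an orphan receptor of the brain, read 6.65, 6.37 and 6.67, then 7.42, 7.52, 7.47 and 7.37, then 7.28, a rise of 0.89 ± 0.10 (adjusted p = 0.0164). At 16 h these 3 genes stood 0.03, -0.18 and -0.17 from their 5 h mean. Kif21b, a kinesin motor, rose by 0.92 ± 0.10 (adjusted p = 0.0164) on arrays of 9.38 to 9.44 and read 8.80 at 16 h. Lpar4, a receptor for lysophosphatidic acid, rose by 0.97 ± 0.09 (adjusted p = 0.0105). Mamdc2 read 6.53, 6.65 and 6.79, then 7.83, 7.53, 7.35 and 8.14, and continued to 9.57 at 16 h. Its rises were 1.05 ± 0.17 to 5 h and a further 1.86 ± 0.25 to 16 h (adjusted p = 0.0466 and 0.00295).

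The remaining 4 were Mei4, a factor of meiotic recombination, at 0.91, the glycine transporter Slc6a9 at 0.84, Dennd4a at 0.82 and the RNA-binding protein Mex3a at 0.81 (adjusted p = 0.0247, 0.041, 0.041 and 0.041). Slc6a9 read 11.54, 11.90 and 12.09, then 12.79, 12.67, 12.72 and 12.53, then 12.54, with control 5 h arrays at 10.13 to 11.26. Mex3a rose as far in control cells, by 0.82 (adjusted p = 0.0112 in the 16-array fit), and the difference between treatments was -0.02 ± 0.17 (SE). Ern1 (IRE1alpha, a sensor of unfolded proteins in the endoplasmic reticulum) was the sole member of its 29-gene list to pass and rose by 0.79 ± 0.12 (adjusted p = 0.041). Over all 39 risers, a median of 10.5% of the 1 h to 5 h difference was present at 2 h and 17.1% at 3 h. Low shares follow in part from the test, which has less power for genes that moved between 1 and 3 h. At 16 h, 37 of the 39 remained above their 1 to 3 h mean, 5 rose further past the threshold and 2 fell back past it.

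The 10 largest falls at 5 h held 3 genes of sterol synthesis and its control. Idi1, the isomerase that makes the second isoprenoid building block, read 9.55, 9.55 and 9.58, then 7.93, 8.34, 8.07 and 8.45, then 8.41, and fell by 1.36 ± 0.13 (SE, adjusted p = 0.00996). Slc16a9, of the monocarboxylate transporter family, read 9.77, 10.03 and 9.75, then 8.73, 8.90, 8.78 and 8.68, then 7.64, and fell by 1.08 ± 0.10 (adjusted p = 0.00996). Slc39a10, a zinc importer, read 10.15, 9.81 and 9.23, then 8.55, 8.47, 8.67 and 8.75, then 8.80. Slc39a10 therefore had 59.6% of its 5 h difference at 3 h, whereas Idi1 and Slc16a9 stood at -2.0% and 2.4%. Glrx, the thiol repair enzyme glutaredoxin, read 9.49, 9.20 and 8.98, then 8.18 to 8.34 and 6.94 at 16 h. It fell by 0.94 ± 0.12 to 5 h and by a further 1.34 ± 0.17 to 16 h (adjusted p = 0.026 and 0.00246). Chst12, a chondroitin sulfotransferase, read 10.41, 10.31 and 10.25, then 9.55, 9.55, 9.62 and 9.31, then 8.24, against 10.37 to 10.71 on all control arrays. Chst12 fell by 0.82 ± 0.10 (adjusted p = 0.0216) at 5 h and by 1.27 ± 0.14 (adjusted p = 0.00113) from there to 16 h.

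Of the others, the matrix metalloproteinase Mmp10 fell by 1.00, DNA polymerase mu (Polm) by 0.99, Insig1 by 1.11 and Cyp51 by 0.86 (adjusted p = 0.041, 0.041, 0.0492 and 0.041). The growth factor Fgf7 fell by 0.97 ± 0.12 (adjusted p = 0.0216) and was the sole faller to turn back past the threshold: it read 10.09, 10.09 and 9.85, then 8.79 to 9.21, then 10.11. Control Fgf7 took the same course, lying between 10.29 and 10.96 early, between 8.92 and 9.94 at 5 h and at 11.20 at 16 h. Smaller falls were those of cyclin E1 (Ccne1, -0.76), calponin 2 (Cnn2, -0.75), Osgin1 (-0.69), the gap junction protein Gja1 (-0.65) and the glucose transporter Slc2a1 (-0.61), with adjusted p of 0.041, 0.041, 0.0492, 0.041 and 0.0445. Over all 33 fallers, 32 remained below their 1 to 3 h mean at 16 h and 13 fell further past the threshold.

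The genes called in deprived cells at 5 h were then read in control cells over the same hours. In the 16-array fit 141 genes changed in control cells from 1 to 3 h to 5 h (0.707%), 44 higher (0.221%) and 97 lower (0.487%), and in the same fit 209 genes changed in deprived cells. Quantile normalization turned the control split to 136 higher and 122 lower, and a fit of the 8 control arrays alone called 3 genes. Control cells had a median change of 0.07 over the 39 deprived risers, whose own median was 0.64, and 4 of these rose in control cells. Over the 33 fallers the control median was -0.31 against -0.69, and 8 fell in control cells. The change differed between treatments for 9 of the 39 risers and 1 of the 33 fallers, and with the pair as a block for 26 and 14. Without control 5 h array 2 or 3 the control count was 19 or 15, without the control 1 h or 2 h array 26 or 6, and without control array 4 it was 83.

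**Figure D4:**
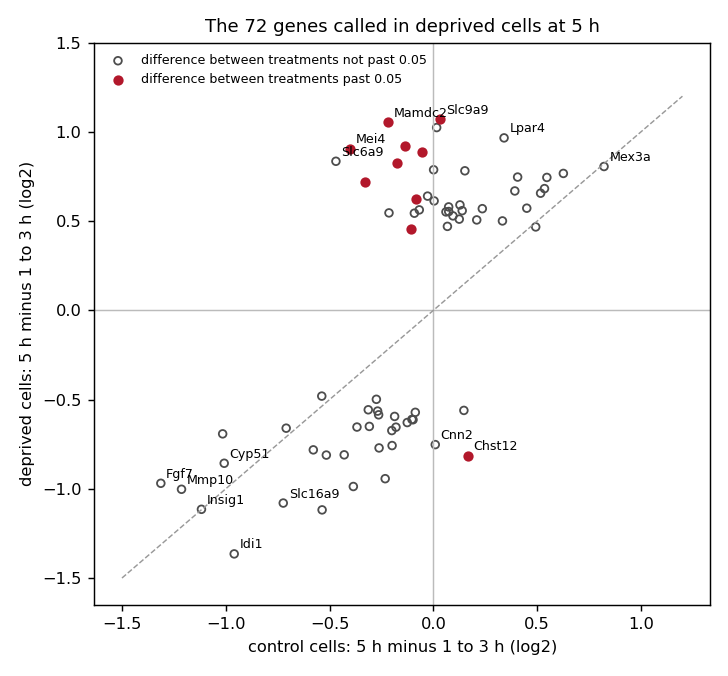
Change from the mean of 1 to 3 h to the mean of 5 h (log2) in control cells (horizontal axis) and deprived cells (vertical axis) for the 72 genes called in deprived cells, 1 circle per gene; filled red circles differ between treatments past an adjusted p of 0.05, and the dashed line marks equal change. The risers lie mostly above the line near a control change of 0.07, while many fallers, such as Cyp51, Fgf7 and Mmp10, lie near the line. The genes were chosen by their deprived change, which in part sets their place away from the line.

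The test of the difference itself (the change in deprived cells minus the change in control cells) found 26 genes (0.13%), 24 higher (0.12%) and 2 lower (0.01%). With the pair of arrays of the same hours and number as a block it found 599 (3.0%), 403 higher (2.02%) and 196 lower (0.983%), the 26 among them, and 102 without both arrays 4. All counts with the block assume that equal numbers mark pairs, which was not shown for numbers 1 to 3. Without the control or deprived 1 h array the count with no block was 1 and 2, without the control or deprived 2 h array 1 and 1, and without the control 3 h array 15. Without deprived 5 h arrays 1, 2 and 3 it was 1, 11 and 5, and without control 5 h arrays 2, 3 and 4 it was 3, 9 and 44. Among the largest differences were those of genes that stood higher at 5 h than at 1 to 3 h in deprived cells and lower in control cells. Cth, the last enzyme of cysteine synthesis from methionine, read 8.90, 9.39 and 9.84, then 10.33, 10.21, 10.19 and 10.04, then 10.66 in deprived cells, while the control arrays went from 8.97 at 1 h to between 7.53 and 8.31 at 5 h. The difference in change was 1.75 ± 0.27 (SE, adjusted p = 0.0219), made of 0.82 up in deprived cells, which did not itself pass (adjusted p = 0.123), and 0.93 down in control cells. Gpt2, mitochondrial alanine aminotransferase, read 9.38, 9.86 and 10.21, then 10.69, 10.65, 10.61 and 10.73, then 10.91, with a difference of 1.59 ± 0.21 (adjusted p = 0.0179), while its deprived change alone did not pass (adjusted p = 0.0783).

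Trib3, a pseudokinase induced by ATF4 and CHOP, read 9.52, 10.05 and 10.43, then 10.70, 10.53, 10.44 and 10.83, then 10.84, with a difference of 1.43 ± 0.25 (adjusted p = 0.0442). Ciart, a repressor of the circadian clock, had a deprived change of 0.27 and a control change of -1.26, so its difference of 1.53 ± 0.27 (adjusted p = 0.0441) came mainly from the control cells. Cpox, an enzyme of haem synthesis, and the lipoprotein receptor Vldlr had differences of 1.23 and 1.21, and Mei4 and Mamdc2 of 1.31 and 1.27 (adjusted p = 0.0442, 0.028, 0.00412 and 0.028). The lower genes were Chst12 at -0.98 and Tgfb1i1, a focal adhesion LIM protein, at -0.90 (adjusted p = 0.0199 and 0.0213). Of the ATF4 list 6 of 42 passed, all higher (Cth, Gpt2, Trib3, Vldlr, Got1 and Vegfa), and 29 with the block. Of the tRNA synthetases 1 of 18 passed (Eprs) and 10 with the block, and of 43 ribosome biogenesis genes 0 and 16. The fit without the block called 0.12% of all genes higher, and the blocked fit 2.02%. The ATF4 list had 19 of 42 members with all 5 h arrays above the early ones in deprived cells and 0 below. In control cells 0 lay above and 27 below. Over all genes tested 5.85% lay above and 5.95% below in deprived cells, and 4.78% above and 5.1% below in control cells.

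Cholesterol synthesis was the list with most falls at 5 h. Of 20 measured genes 5 fell (Idi1, Insig1, Cyp51, Dhcr7 and Nsdhl) and 0 rose, against 0.166% and 0.196% of all genes tested. The list median was -0.62 against -0.01 over all genes. With all 5 h arrays 17 lay below all early arrays, against 5.95% of all genes. In control cells 6 of the 20 did so, against 5.1% of all genes. Insig1 encodes the protein that holds SREBP in the endoplasmic reticulum, and Cyp51, Dhcr7 and Nsdhl encode later steps of the pathway. Insig1 read 10.78, 10.06 and 9.93, then 9.14, 9.12, 8.95 and 9.34, then 9.11, so it descended from the first hours on. Dhcr7 read 9.02, 8.68 and 8.64, then 8.05, 7.96, 7.85 and 8.02, then 7.78, and fell by 0.81 ± 0.11 (SE, adjusted p = 0.041). From the 1 h array the list median was -0.37, -0.38, -1.06 and -1.09 at 2, 3, 5 and 16 h in deprived cells and -0.39, -0.42, -0.67 and -0.13 in control cells. The courses were alike to 3 h, and no member passed the test of the difference between treatments at 5 h, with or without the block. At 16 h the control array was back near its 1 h level: Insig1 read 10.52 and Cyp51 10.34 against 9.11 and 8.96 in deprived cells. With the block 9 of the 20 genes fell further, or recovered less, from 5 to 16 h in deprived than in control cells, and 0 without it. Over all genes tested the blocked fit called 6.38% lower, and the fit without it 1.07%. Control 5 h array 4 was high for these genes, with Insig1 at 10.38 against 8.30 to 8.93 on control arrays 1 to 3. Of the 15 fatty acid synthesis genes none passed at 5 h and 4 fell from 5 to 16 h, against 3.09% of all genes tested. Among them was the desaturase Scd2, at 12.87 to 13.07 on the 5 h arrays and 11.53 at 16 h (-1.42, adjusted p = 0.00036).

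The largest changes came between 5 and 16 h. In the deprived fit 845 genes passed (4.24%), 229 higher (1.15%) and 616 lower (3.09%); the lone 16 h array was assumed to vary like the others. The split was 436 higher and 643 lower after quantile normalization. The count was 496, 546 and 490 without 5 h arrays 1, 2 and 3 and 2688 without array 4, which included all 845. The change from 5 to 16 h was lower than in control cells for 214 genes (1.07%) and higher for 85 (0.426%), or 299 in all (1.5%). Such a difference can come from a change in either treatment. After median centring 115 were higher and 181 lower. With the pair as a block there were 2517 (12.6%), 1244 higher (6.24%) and 1273 lower (6.38%), without both arrays 4 1308, and without deprived or control array 4 alone 491 and 647. Kif26b, of the kinesin family, read 10.83 to 11.44 on the 7 earlier arrays and 7.46 at 16 h, a fall of 3.68 ± 0.19 (SE), or 12.8-fold (adjusted p = 4.15e-05). Angpt1, the ligand of the receptor Tie2, lay between 10.02 and 11.45 and then at 7.32, and fell by 3.47 ± 0.33 (adjusted p = 0.000483). Epas1 (HIF-2alpha) read 11.97, 11.67 and 11.54, then 11.37, 11.35, 11.58 and 10.28, then 8.03, and fell by 3.12 ± 0.40 (adjusted p = 0.00223). Control levels of these 3 genes at 16 h were 10.66, 10.80 and 11.44. Ccdc80, Medag, Aspn, Col12a1 and Nrep fell, with log2 changes of -3.06, -2.94, -2.86, -2.79 and -2.77 (adjusted p = 4.15e-05, 0.0118, 0.0126, 5.28e-05 and 0.000666). In control cells these genes changed by -1.13, -0.13, 0.2, -0.94 and -0.29 over the same hours, so Ccdc80 and Col12a1 were lower there too.

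Late rises were fewer, and of the 8 largest Mamdc2 alone had passed the test at 5 h. B4galnt2, a glycosyltransferase, read 6.60, 6.63 and 6.65, then 6.99, 6.59, 6.75 and 6.31, then 9.30, and rose by 2.64 ± 0.21 (SE, adjusted p = 0.000181), with 6.07 on the control 16 h array. Avil, the actin-binding protein advillin, read 8.36 to 8.62 early, 8.58 to 8.99 at 5 h and 10.98 at 16 h (2.19 ± 0.17, adjusted p = 0.000181). Napb (beta-SNAP, of vesicle fusion) rose by 2.04, Chrnb1, an acetylcholine receptor subunit, by 1.80, and the dystrophin-related gene Drp2 by 1.75 (adjusted p = 0.000189, 0.000859 and 0.000246). Car6, a secreted carbonic anhydrase, rose by 1.91 ± 0.45 (adjusted p = 0.0461) from 5 h values of 10.27, 9.98, 10.15 and 8.76 to 11.70. Control Car6 read 9.41, 9.21, 8.96 and 5.66 at 5 h and 6.55 at 16 h. The Car6 difference between treatments (3.68 ± 1.39, SE) did not pass. Chrnb1 was also higher at 16 h in control cells (8.65 against 7.40 to 7.74 at 5 h), and its difference between treatments did not pass (0.70, adjusted p = 0.287).

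The late falls took in genes of the extracellular matrix and the contractile cytoskeleton. Of 32 collagen and matrix genes 14 fell from 5 to 16 h and 0 rose, against 3.09% and 1.15% of all genes tested. The list median was -0.83 against 0.04 over all genes. For 12 genes the change was lower than in control cells, against 1.07% of all genes tested. Before that the list median had stayed between -0.03 and -0.07 from 2 to 5 h. Thbs1 (thrombospondin 1) read 13.43, 13.26 and 13.13, then 12.83, 12.86, 13.04 and 12.54, then 10.25, and fell by 2.57 ± 0.18 (SE, adjusted p = 0.00012). Lox, which cross-links collagen, read 12.40 to 13.09 at 5 h and 10.33 at 16 h (-2.53, adjusted p = 0.00036), and periostin (Postn) 12.76 to 12.91 and 10.46 (-2.37, adjusted p = 4.15e-05). Col1a1 fell by 2.15 to 9.90, while the control array read 12.03. Of 28 actin and LIM cytoskeleton genes 12 fell, against 3.09% of all genes tested. Among them were Acta2 by 1.84, Tpm2 by 1.16 and Flna by 0.93 (adjusted p = 0.000815, 0.00223 and 0.00717). For 5 genes of the list the change was lower than in control cells, against 1.07% of all genes tested. Cnn2 was the early member, at 12.42, 12.03 and 12.05, then 11.34, 11.55, 11.44 and 11.33, then 9.87. The actin list median from 1 h was -0.05 and -0.27 at 2 and 5 h, and 8 members lay below all early arrays at 5 h, against 5.95% of all genes. On this list 5 h array 4 stood at -0.58 from 1 h in the median against -0.07 on array 3. The 12 fibroblast markers, 4 of which fell, share Col1a1 and Postn with the matrix list, and in bulk RNA fewer cells of a kind and less RNA per cell cannot be told apart.

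**Figure D5:**
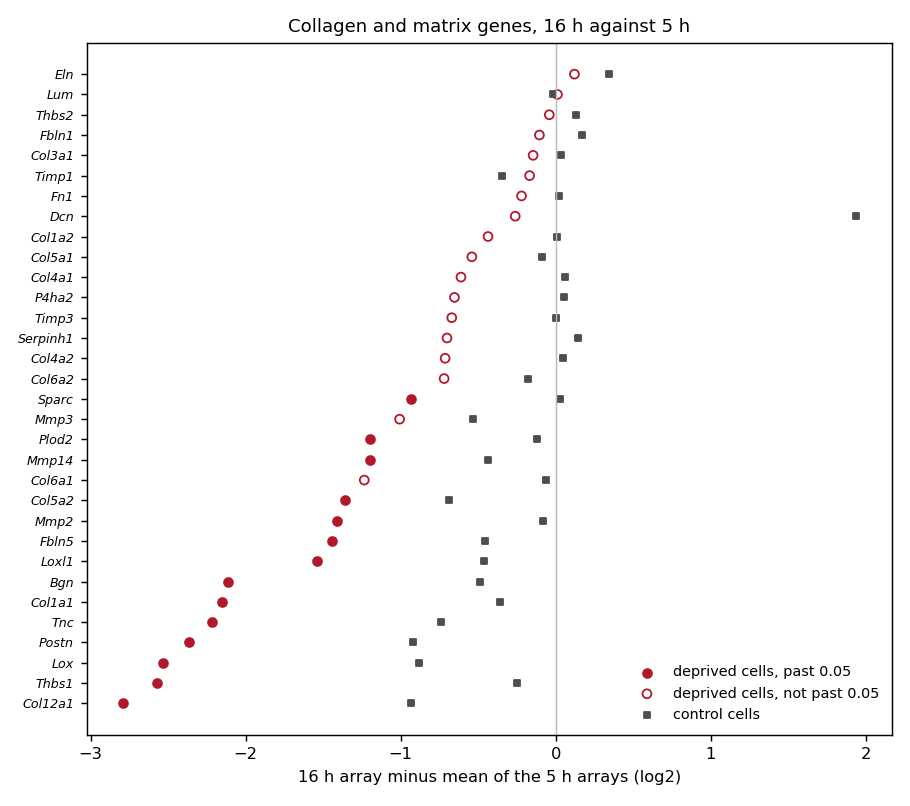
Difference between the 16 h array and the mean of the 5 h arrays (log2, horizontal axis) for 32 collagen and matrix genes, deprived cells as red circles (filled where the adjusted p is under 0.05) and control cells as grey squares. The 14 filled circles run from -0.93 (Sparc) to -2.79 (Col12a1), and the control squares of the same genes lie nearer to 0.

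Metabolic lists changed late as well, in part. Over all genes tested 3.09% fell and 1.15% rose from 5 to 16 h. Of 24 NRF2 oxidative stress genes 6 fell from 5 to 16 h and 0 rose, among them the glutathione transferases Mgst1 by 2.21, Gsta4 by 2.05 and Gstm1 by 1.25 (adjusted p = 9.9e-05, 0.0015 and 0.000864). In control cells Mgst1 and Gsta4 were also lower at 16 h, by 1.01 and 0.62, and 1 of the 6 differed between treatments (Gstm1). Of 15 glycolysis genes 4 fell: Pfkl by 1.28, Pfkp by 0.96, Aldoa by 0.91 and Tpi1 by 0.68 (adjusted p = 0.0095, 0.00446, 0.0092 and 0.0306). For 3 of the 15 the change differed between treatments, against 1.5% of all genes tested. In contrast the tRNA synthetases Wars and Eprs rose by 0.74 and 0.57 (adjusted p = 0.0118 and 0.0256). Of 43 ribosome biogenesis genes 2 rose, Wdr12 and Wdr43, and the list median from 1 h reached 0.48 at 16 h against -0.36 in control cells.

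Genes first displaced by 1 log2 unit at 5 h or at 16 h often differed between arrays of 5 h. Rab39b, a small GTPase, read 8.01, 8.38 and 8.87, then 9.62, 9.40, 9.47 and 8.69, then 10.59, with control 5 h arrays at 6.95 to 8.09. Bbs4, of the ciliary BBSome complex, and Nemp1, of the nuclear envelope, stood 0.75 and 0.66 higher at 5 h than at 1 to 3 h, and both were higher again at 16 h (9.46 and 11.22), but neither passed the test. Ccdc85a read 10.36, 10.26 and 9.39, then 8.72, 8.46, 8.67 and 7.32, then 7.47. Sfrp1, a secreted antagonist of Wnt signalling, read 10.61, 10.53 and 9.67, then 10.03, 9.89, 10.19 and 7.53, then 6.67. Gask1b read 10.99, 10.94 and 10.40, then 9.86, 9.52, 9.97 and 6.70, then 6.90. Array 4 was the low array for all 3 genes, and in control cells too, at 7.98, 7.98 and 7.02. The potassium channel Kcnj2 went from 9.74 at 1 h to 7.25 to 8.65 at 5 h and 5.58 at 16 h, where it fell by 2.58 ± 0.45 (SE, adjusted p = 0.0118). Cox6a2, a subunit of cytochrome oxidase, reached 11.28 at 16 h from 8.26 to 10.10 at 5 h (1.85, adjusted p = 0.0899). Arhgdib read 9.10, 9.08, 9.16 and 7.68 at 5 h and 6.09 at 16 h, a fall of 2.67 ± 0.46 (SE, adjusted p = 0.0106).

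Genes of quiescence and growth control showed no common course. Of the 26 FOXO target and quiescence genes none passed at 5 h, and the list median from 1 h was 0.11, 0.27, 0.10 and -0.04. Txnip, which binds thioredoxin and limits glucose uptake, read 10.44, 11.03 and 11.45, then 10.99, 11.15, 11.08 and 12.19, then 12.41. Ccng2, cyclin G2, read 7.82, 8.57 and 9.01, then 8.54, 8.68, 8.60 and 9.88, then 8.60. In both the 3 h array lay above 5 h arrays 1 to 3 and below array 4. Klf9 stayed between 11.10 and 11.64 to 5 h and read 10.74 at 16 h. Vegfa, the angiogenic growth factor, read 10.34, 10.69 and 10.77, then 10.94, 10.86, 10.81 and 10.74, then 10.61, and its change differed from that of control cells by 0.96 ± 0.17 (SE, adjusted p = 0.0442). Ier3 stood 0.45 lower at 5 h than at 1 to 3 h in deprived cells (adjusted p = 0.142) and fell by 0.89 in control cells (adjusted p = 0.0369). Ccne1 read 9.35, 9.35 and 9.55, then 8.71, 8.78, 8.75 and 8.38, then 8.30, and was 1 of 36 DNA replication and S phase genes to pass at 5 h. Over that list and the 35 genes of G2 and mitosis the medians from 1 h at 5 and 16 h were 0.35 and 0.57, and 0.29 and 0.49. In control cells they were 0.25 and 0.17, and 0.41 and 0.40. Of the G2 and mitosis genes, 9 had all 5 h arrays above all early arrays in deprived cells and 21 in control cells. Over all genes tested these shares were 5.85% and 4.78%.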

How the data were processed

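The submitters deposited 1 table of log2 expression values for the 16 arrays, made with RMA per the submitters' processing notes, which also name limma; versions and the transcript annotation release are not given in the sources used here. RMA corrects background, quantile-normalizes and summarises probes, so the deposited log2 values are relative, low levels are compressed, and levels of different genes are not comparable. Values ran from 3.07 to 14.2 and array medians from 7.02 to 7.12; the number of arrays limits the precision. Of 35556 rows, 21789 carried 1 gene symbol in the platform annotation, 1621 several and 12146 were unnamed here; 21698 were updated through Entrez identifiers (RefSeq, GRCm38.p6). The row with the highest mean was kept for the 999 genes with several rows, leaving 19938 genes.

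The main fit (limma 3.58.1, R 4.3.3; Benjamini-Hochberg, adjusted p under 0.05) used the 8 deprived arrays in 3 groups (1 to 3 h, 5 h, 16 h). Control changes and differences between treatments came from all 16 arrays in 6 groups. Code was tested on simulated data. Deprived and control arrays of the same hours and number were read as pairs. At 5 h their deviations from the group means correlated at 0.354, 0.584, 0.467 and 0.896 for numbers 1 to 4. The group means include array 4, which stood apart in both treatments, so positive correlations for numbers 1 to 3 can arise under any numbering. Arrays of unlike number were not compared, so these values cannot show that numbers 1 to 3 are pairs. Named genes were the 10 largest rises and falls at 5 h, the 8 largest at 16 h and in the difference between treatments, up to 4 called members per list, 4 per first time of displacement among genes above the median level, and a list always named; of these Gdf15 was not analysed here. Got1, Nsdhl, Eprs and the list members with a 16 h change were chosen after their values were seen. The samples, lists and tests were chosen with earlier results of these data known, so counts over lists are descriptions and no set test was made. Alternatives were other normalizations, filters, variance priors, array weights, pair blocks and left-out arrays.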

Additional observations from a re-analysis of the deposited data

Results flagged for a closer look

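Among the 4 deprived arrays of 5 h, 10 of the 92 named genes had an array far from the other 3; by its nominal level the limit used sets about 1 in 20 genes apart by chance. Array 4 was the low array for Arhgdib (7.68), Ccne1 (8.38), Gask1b (6.70) and Sfrp1 (7.53), and the high array for Ccng2 (9.88), Ddit4 (10.59), Egr1 (10.29) and Txnip (12.19). Array 3 was the high array for Mmp10 (8.72) and array 1 the low array for Snora44 (9.53).

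The change from 1 to 3 h to 5 h differed between deprived and control cells for 15 named genes. It was higher in deprived cells for Cth (1.75), Gpt2 (1.59), Ciart (1.53), Trib3 (1.43), Mei4 (1.31), Mamdc2 (1.27), Cpox (1.23), Vldlr (1.21), Kif21b (1.06), Slc9a9 (1.04), Dennd4a (1.00), Vegfa (0.96) and Gpr85 (0.94). It was lower for Chst12 (-0.98) and Tgfb1i1 (-0.90). The change from 5 to 16 h differed for 14. It was higher in deprived cells for B4galnt2 (3.06), Avil (2.72), Napb (2.28), Mamdc2 (2.02) and Drp2 (1.52), and lower for Angpt1 (-3.63), Kif26b (-3.03), Epas1 (-2.91), Nrep (-2.48), Ccdc80 (-1.93), Col12a1 (-1.85), Cnn2 (-1.67), Slc16a9 (-1.40) and Chst12 (-1.18). Values are log2 differences from limma with an adjusted p under 0.05, and the 16 h values rest on 1 array in each treatment.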

How the results depend on the processing

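The count of genes called at 5 h in deprived cells (72) was 44 above the median level only, 46 with the mean of a gene's rows, 35 with a trended and robust prior, 2851 with array weights, 0 with unnamed rows included (2945 at an unadjusted p under 0.05; limma), 209 in the 16-array fit, 621 for a slope on log2 hours and 0 to 791 with an array left out. The 16 h count (845) was 4376 with array weights, 523 with unnamed rows, 452 from the 5 and 16 h arrays only and 490 to 2688 with a 5 h array left out. The control count (141) was 258 after quantile normalization, 90 with the trended prior, 3157 with array weights, 41 with unnamed rows, 64 at 1.5-fold, 3 from control arrays alone and 6 to 182 with an array left out.

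The difference between treatments at 5 h (26) was 920 with array weights, 13 with unnamed rows, 599 with the replicate block, 102 without both arrays 4, 326 with the replicate block and without them (chosen after seeing the data) and 1 to 44 with an array left out. At 16 h (299) it was 472 after quantile normalization, 3680 with array weights, 2517 with the replicate block, 1308 without both arrays 4, 2401 with both changes (chosen after seeing the data) and 225 to 647 with an array left out. The block applies to the comparisons between treatments; within deprived cells the labels number the 5 h arrays alone, so no block was fitted there. Counting displaced genes from 1.5-fold gave 226, 625, 697 and 1699 above and 123, 323, 481 and 1648 below at 2, 3, 5 and 16 h.

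Genes near 0 at 5 h turned sign: Chac1 to -0.04 with array weights, -0.12 without the 1 h array and -0.05 without array 4 (up to 0.19 without the 3 h array); Ddit4 to -0.18, -0.07 and -0.14 in the same settings (up to 0.3); Klf9 to 0.01, 0.06 and 0.08 without the 1 h array, the 2 h array and array 4 (-0.17 without the 3 h array); Has2 to 0.13 without the 1 h array (-0.83 without the 3 h array); Myc to -0.06 without the 2 h array; and Sesn2 to 0.14 for the slope, 0.15 without the 3 h array and 0.0 without 5 h array 3. Of the other values of named genes under all alternatives, 1212 kept direction and side of the threshold, 364 kept the direction and lost the threshold and 17 passed it anew. The cause of these shifts was not tested.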

Other observations

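Of the lists tied to protein turnover and respiration (autophagy, lysosome, heat shock and oxidative phosphorylation) 0 members passed the test of 5 h against 1 to 3 h (limma, adjusted p under 0.05) in deprived cells. For the 30 autophagy genes the list median from the 1 h array was 0.23, 0.40, 0.29 and 0.32 at 2, 3, 5 and 16 h against 0.03, 0.17, 0.11 and -0.02 in control cells. The 37 lysosome and TFE target genes had medians of 0.01, 0.06, -0.03 and -0.30 in deprived and -0.09, -0.04, -0.22 and -0.37 in control cells. The 20 heat shock chaperones stood at 0.15, 0.17, 0.06 and -0.11, and the 34 oxidative phosphorylation subunits at -0.04, 0.14, -0.14 and -0.19. Over all genes tested 72 passed at 5 h (0.361%).

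Of the 34 amino acid transporters Slc6a9 rose at 5 h, and 3 fell from 5 to 16 h. The list median stayed between 0.02 and 0.11 from 2 to 16 h, while for 9 members the 5 h change was higher than in control cells with the pair as a block. The 14 serine, glycine and one-carbon enzymes had medians of 0.13, 0.36, 0.32 and 0.40 in deprived cells and 0.05, 0.08, -0.18 and -0.36 in control cells, and 7 differed between treatments at 5 h with the block. With the block the 5 h change was higher for 2.02% of all genes tested and lower for 0.983%. Over all genes tested 0.196% rose and 0.166% fell at 5 h, and 1.15% rose and 3.09% fell from 5 to 16 h. Of 17 clock genes 1 rose and 2 fell from 5 to 16 h. Of 22 hypoxia-inducible genes 1 fell at 5 h (Slc2a1) and 2 fell from 5 to 16 h. The interferon list (22 genes) had 3 rises and 1 fall from 5 to 16 h, and the chemokine and NF-kappaB list (22 genes) 1 of each. Of 20 p53 target genes 2 rose and 2 fell from 5 to 16 h, and of 20 mTORC1 inhibitors and sensors 0 changed at 5 or 16 h.

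Of the other marker lists, 10 astrocyte genes had 1 fall at 5 h (Gja1) and 3 from 5 to 16 h, and 11 neural progenitor genes had 0 and 2. Over all genes tested 0.166% fell at 5 h and 3.09% from 5 to 16 h, and in either direction 0.361% and 4.24% changed. The highest member levels of these 2 lists were 11.74 and 13.7. The oligodendrocyte (9 genes), microglia and macrophage (10 genes) and epithelium (7 genes) lists had 0 changes at either time, with highest member levels of 7.89, 9.08 and 7.87.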
